A study of Aspergillus nidulans with 12 samples.

Results

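The outermost 100 kb at both ends of the 8 chromosomes of Aspergillus nidulans held 1033 of the 21867 merged regions on chromosomes I to VIII (4.72%). A merged region is an interval of the common list that the authors deposited with each IgG library, and a region was placed at an end when its centre lay at most 100 kb from position 1 or from the last merged base of its chromosome. The 16 ends covered 1.6 Mb, or 5.25% of the 30.5 Mb considered, and the mitochondrial rows of the list (21897 regions in all) were not used. Coordinates are those of the FGSC A4 assembly of the files, counted from 1.

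The chromatin came from cells grown vegetatively for 24 h at 37°C in the dark. The VeA::FLAG strain carried a FLAG tag and the AfriboB marker at the C terminus of veA. The LaeA::FLAG strain carried the same tag and marker at laeA, together with veA. Wild type (WT) had no tag. Each was 1 strain, represented by 3 anti-FLAG libraries and 1 anti-rabbit IgG library. FLAG is a short peptide that the anti-FLAG antibody binds, so that anti-FLAG peaks in WT are background of the antibody, and IgG is the negative control of the precipitation. Nothing in the labels says that the libraries came from separate cultures, so p-values measure the spread between these libraries, which may be technical.

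VeA is a velvet-family regulator that couples light to fungal development, and LaeA is a methyltransferase-like nuclear protein known as a global regulator of secondary metabolism. In the nucleus both can join the velvet complex. Chromosome ends of filamentous fungi are known for silent chromatin, fast-changing gene content and many secondary metabolite gene clusters.

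The end regions were sparser and lay farther from exon starts than the rest. There were 646 regions per Mb at the ends and 721 per Mb elsewhere, with a median width of 265 bp in both. The class Intergenic of the deposited annotation took 11.04% of the end regions and 4.91% of the others, and the class promoter-TSS, positions near an exon start, took 58.3% of the end regions and 67.2% of the others. The median distance to the nearest exon start was 332 bp at the ends and 278 bp elsewhere. The end regions had 424 nearest genes, of which 391 were found in a table of gene names and 2 had a symbol there, abfI (AN2632) and xanB (AN2606). The other genes are given by locus identifier, with no role. Of the end regions, 275 (26.6%) held no peak of the 11 peak lists used here, against 20.2% of the other regions. All remaining regions, at the ends and elsewhere, held a peak of these lists. The merged list is therefore no background independent of the peaks. A share of regions with a peak depends on what the other libraries and lists brought into it, whereas peaks per Mb use the sequence instead.

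The libraries differed in depth, and this touches every count. Total tags per library were between 319742 (WT replicate 3) and 10610394 (the LaeA::FLAG IgG library), and the anti-FLAG libraries held 134 to 5783 peaks on chromosomes I to VIII. WT replicate 1 was the deepest anti-FLAG library (7974006 tags) yet had the fewest peaks (134), and it stood apart at the ends, as its values show. Signal is given as tags scaled to a library of 10 M, in steps of 0.5 tags. The combined list of a tagged strain was called on the pooled tags of its 3 libraries, so it has no replicates, and its intervals cover counting error only.

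Combined peaks of both regulators were fewer at the chromosome ends. A VeA::FLAG combined peak centre lay in 186 of the 1033 end regions (18.01%, 95% Wilson interval 15.8% to 20.5%), against 25.4% of the other regions and 25.1% of all regions tested. The ratio of the shares was 0.708 (95% interval 0.621 to 0.808). A LaeA::FLAG combined peak centre lay in 108 end regions (10.5%, 95% Wilson interval 8.73% to 12.5%), against 15.4% of the other regions and 15.2% of all regions, with a ratio of 0.679 (95% interval 0.566 to 0.814). Per Mb of sequence, the ends held 116 VeA::FLAG and 67.5 LaeA::FLAG combined peaks, against 184 and 111 per Mb elsewhere. These comparisons have no test, since each strain had 1 pooled list.

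Regions that held peaks of both regulators were also rarer at the ends. There were 30 at the ends (2.90%), against 6.29% of the other regions and 6.13% of all regions, a ratio of 0.462 (95% interval 0.323 to 0.660). Among end regions with a VeA::FLAG peak they made up 16.1%, and among those with a LaeA::FLAG peak 27.8%. Elsewhere the same figures were 24.7% (VeA::FLAG) and 40.8% (LaeA::FLAG). When peaks were matched by their centres at most 100 bp apart instead, 26 end peaks of each list were shared. This was 14.0% of the VeA::FLAG end peaks, against 15.1% elsewhere, and 24.1% of the LaeA::FLAG end peaks, against 24.9% elsewhere. The shared part was thus lower at the ends when counted by region and differed by about 1 point when counted by peak centres, and neither measure was tested. Lower shares of each regulator by themselves lower the share of regions with both. Whether that share fell further than this was not tested.

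The lower share was found on every chromosome. It was lower at the ends than in the rest for VeA::FLAG on 8 of 8 chromosomes and for LaeA::FLAG on 8 of 8. Taken singly, 15 of 16 ends were below the rest of their own chromosome for VeA::FLAG and 14 of 16 for LaeA::FLAG. The left end of chromosome III was the exception for both, with 20 of 72 regions (27.8%) for VeA::FLAG against 27.7% in the rest of the chromosome, and 13 of 72 (18.1%) for LaeA::FLAG against 17.3%. The right end of chromosome VI had the same LaeA::FLAG share as its chromosome to 3 digits (14.5% for both).

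The ends also differed among themselves. The VeA::FLAG share was lowest at the right end of chromosome I, in 6 of 59 regions (10.2%), against 26.6% in the rest of that chromosome. The LaeA::FLAG share was lowest at the right end of chromosome IV, in 1 of 50 regions (2%), and at its left end, in 2 of 62 regions (3.23%), against 14.6% in the rest of the chromosome. Of the 50 regions at the right end, 26 lay in a stretch with almost no LaeA::FLAG IgG signal, described with the IgG libraries, and whether the LaeA::FLAG strain carries this stretch was not tested. In the other 24 regions the share was 4.17% (1 region), above that of the left end. Each end held 50 to 92 regions, and differences between single ends were not tested.

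**Figure D1:**
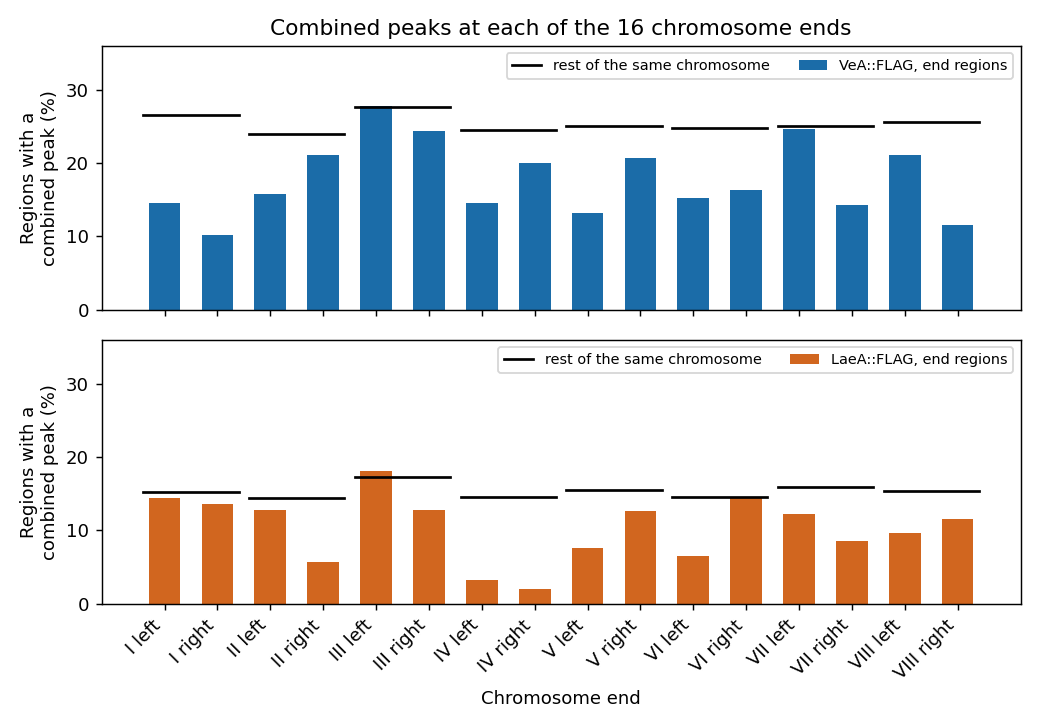
Percent of merged regions that hold a combined peak centre (y axis) at each of the 16 chromosome ends (x axis), with VeA::FLAG above LaeA::FLAG. Bars show the end regions and black lines the rest of the same chromosome. Only the left end of chromosome III (both strains) and the right end of VI (LaeA::FLAG, 14.5% for both) reach their line. Both ends of IV are lowest for LaeA::FLAG (3.23% left and 2% right). Of the 50 regions at the right end of IV, 26 lie in a stretch with almost no LaeA::FLAG IgG signal, and the other 24 give 4.17%.

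By distance from the end, the share was lowest in the outermost 5 kb for VeA::FLAG and between 10 and 25 kb for LaeA::FLAG (10 of 143 regions, 6.99%), and LaeA::FLAG had 14.3% between 5 and 10 kb. Within 5 kb, 3 of 61 regions (4.92%, 95% Wilson interval 1.69% to 13.5%) held a VeA::FLAG peak and 5 of 61 (8.20%) a LaeA::FLAG peak. Between 50 and 100 kb VeA::FLAG reached 18.8% and LaeA::FLAG 12.4%. Between 100 and 200 kb VeA::FLAG reached 23.2% and LaeA::FLAG 11.9%, and beyond 1000 kb they reached 26.2% and 16.4%. The order was not smooth near the end, since 9 of the 42 regions between 5 and 10 kb (21.4%) held a VeA::FLAG peak. From 100 to 200 kb the shares of both strains lay between those of the ends and of the chromosome interior, and whether the strains differed in this was not tested. The single libraries were uneven in the outermost 10 kb. The VeA::FLAG replicates had a peak in 9.71%, 13.6% and 18.4% of the 103 regions there, against 19.5%, 25.7% and 26.2% beyond 100 kb. The LaeA::FLAG replicates had one in 16.5%, 10.7% and 3.88%, against 11.3%, 10.2% and 2.57% beyond 100 kb, so each was above its level in the rest. The WT replicates were also above theirs, with 9.71%, 9.71% and 2.91%, against 0.518%, 8.35% and 0.917%. The lower LaeA::FLAG share at the ends thus did not hold for single libraries in the outermost 10 kb.

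**Figure D2:**
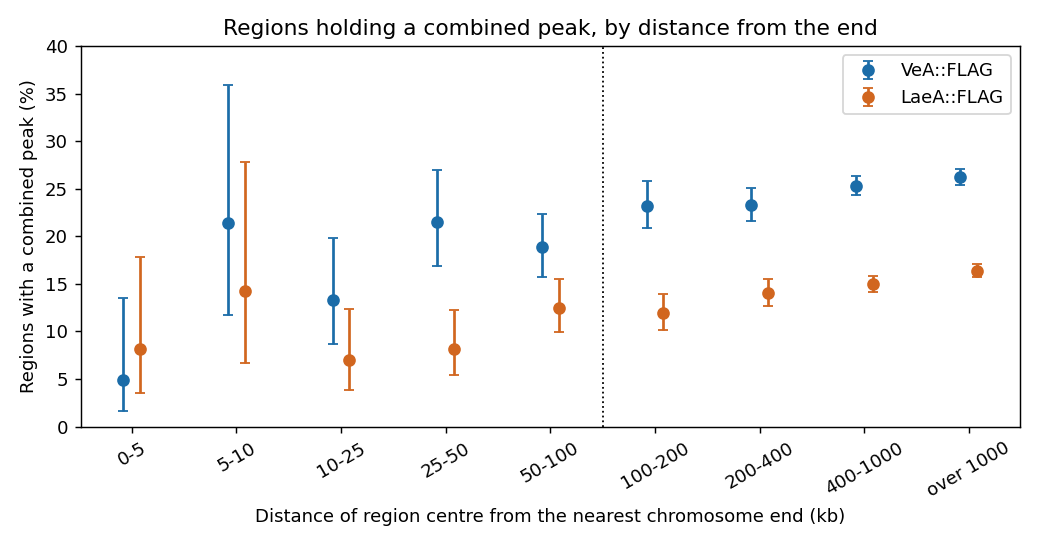
Percent of merged regions with a combined peak centre (y axis) in bins of distance from the nearest chromosome end in kb (x axis, bins of unequal width) for VeA::FLAG and LaeA::FLAG, with 95% Wilson intervals. The dotted line marks 100 kb. The VeA::FLAG share is 4.92% in the first bin and 26.2% in the last.

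At the limit of 100 kb itself, the 3 regions just inside, nearest to AN6461, AN11093 and AN7825, held 1 LaeA::FLAG and 0 VeA::FLAG combined peaks, and the 3 just outside, nearest to AN2586, AN9210 and AN3501, held 0 LaeA::FLAG peaks and 1 VeA::FLAG peak.

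The share was lower at the ends within each annotation class as well. In promoter-TSS regions it was 20.8% at the ends against 28.3% elsewhere for VeA::FLAG, and 12.0% against 15.9% for LaeA::FLAG. Near transcription termination sites it was 15.1% against 19.0% for VeA::FLAG and 10.3% against 13.2% for LaeA::FLAG. In exons it was 7.06% at the ends against 14.4% elsewhere for VeA::FLAG. The widest gap was in Intergenic regions for LaeA::FLAG, where 7 of 114 end regions (6.14%, 95% Wilson interval 3.01% to 12.1%) held a peak, against 24.1% of the others.

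The peaks that were called at the ends were slightly weaker and about as repeatable. Their median peak score was 185 at the ends and 214 elsewhere for VeA::FLAG, and 205 at the ends and 246 elsewhere for LaeA::FLAG. A peak of at least 2 of the 3 libraries lay within 100 bp of 28.5% of the VeA::FLAG end peaks, against 30.2% elsewhere, and of 13.0% of the LaeA::FLAG end peaks (95% Wilson interval 7.88% to 20.6%), against 10.04% elsewhere. Of the VeA::FLAG end peaks, 11 had a WT anti-FLAG peak at most 100 bp away (5.91%, 95% Wilson interval 3.33% to 10.3%), against 2.28% elsewhere. For LaeA::FLAG this share was 4.63% at the ends, against 4.35% elsewhere. Both rested on few WT libraries, as leaving each out in turn, chosen after the values were seen, showed. Without WT replicate 1 the VeA::FLAG share was 2.69% at the ends (5 peaks), against 1.92% elsewhere, and the LaeA::FLAG share was 2.78% (3 peaks), against 4.07%. Without WT replicate 2 the VeA::FLAG share was 3.76% at the ends, against 0.583% elsewhere.

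The same question was asked of each library, since libraries are the replicates. In VeA::FLAG replicates 1, 2 and 3, a peak centre lay in 15.6%, 21.7% and 21.7% of the end regions, against 19.5%, 25.7% and 26.2% of the other regions. Over all regions these libraries had 19.3%, 25.5% and 26%. The VeA::FLAG differences of -3.88, -3.99 and -4.48 percentage points lay close together and averaged -4.12 ± 0.320 (SD, n = 3).

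In the LaeA::FLAG replicates the shares were 10.3%, 7.16% and 2.03% at the ends, against 11.3%, 10.2% and 2.57% elsewhere, and 11.2%, 10.1% and 2.54% over all regions. The mean LaeA::FLAG difference was -1.54 ± 1.33 percentage points (SD, n = 3). In the WT replicates the shares were 2.42%, 7.84% and 0.871% at the ends, against 0.518%, 8.35% and 0.917% elsewhere, and 0.608%, 8.33% and 0.915% over all regions. WT replicate 1 was thus the only library with a higher share at the ends.

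Over the 9 libraries the mean difference was -1.74 percentage points, lower at the ends in 8 of 9, and did not pass 0.05 (exact two-sided sign-flip permutation test, p = 0.0586, smallest possible p 0.00391). This test pooled the tagged strains with WT, whose peaks are background of the antibody. The strain means were -4.12 (VeA::FLAG), -1.54 (LaeA::FLAG) and 0.449 (WT) percentage points. Its p, passing or not, therefore does not speak to VeA or LaeA alone. The call was close to the threshold. It passed under several settings that kept all libraries, such as a 200 kb window (mean -1.51 points, p = 0.0391, same exact permutation test). It did not pass with a 50 kb window (mean -1.48 points, exact two-sided sign-flip permutation test, p = 0.141). Leaving out VeA::FLAG replicate 1, 2 or 3 or LaeA::FLAG replicate 2 weakened it (exact two-sided sign-flip permutation tests, p = 0.117 for each). Without WT replicate 1, the only library of the opposite sign, the mean was -2.19 points, lower in 8 of 8 libraries (exact two-sided sign-flip permutation test, p = 0.00781, the smallest that 8 libraries allow). With all 8 of the same sign the test gives this p whatever their sizes, so removing WT replicate 1 fixed it. The same holds for the log2 ratio without WT replicate 1 given next. Libraries with more peaks weigh more in a difference in percentage points. As a log2 ratio of the shares, a measure chosen after the values were seen, the mean was 0.03 over 9 libraries and -0.25 without WT replicate 1 (exact two-sided sign-flip permutation tests, p = 1 and p = 0.00781).

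**Figure D3:**
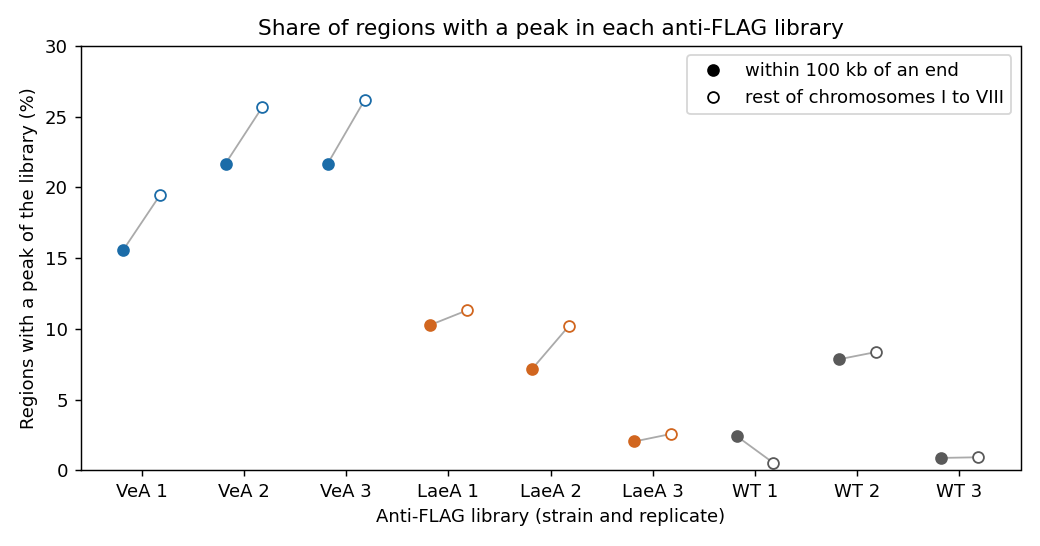
Percent of merged regions holding a peak centre (y axis) in each of the 9 anti-FLAG libraries (x axis, strain and replicate). Filled points are the regions within 100 kb of an end and open points the rest, joined within a library. The filled point is lower in all libraries except WT 1, where it is 2.42% against 0.518%.

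As a share of a library's own peaks, the ends held 3.81%, 3.97% and 3.89% in the VeA::FLAG replicates, or 3.89% ± 0.0780 (SD, n = 3). The LaeA::FLAG replicates had 4.29%, 3.38% and 3.77%, or 3.81% ± 0.456 (SD, n = 3), and the WT replicates had 19.4%, 4.42% and 4.50%, or 9.44% ± 8.63 (SD, n = 3). All libraries except WT replicate 1 were below 5.25%, the share of the sequence. The difference from WT was -5.55 percentage points for VeA::FLAG and -5.63 for LaeA::FLAG, and no VeA::FLAG or LaeA::FLAG library overlapped the WT range (exact two-sided permutation tests, p = 0.1 and adjusted p = 0.15 for each). With 3 libraries against 3 this test cannot give a p under 0.1. The separation was lost in lists of equal length: among the 134 top-scoring peaks of each library the ends held 2.99% to 4.48% in VeA::FLAG and 2.24% to 4.48% in LaeA::FLAG, against 19.4%, 2.99% and 3.73% in the WT replicates (exact two-sided permutation tests, p = 0.7 for VeA::FLAG and p = 0.6 for LaeA::FLAG). It was also lost for both strains with a 200 kb window (p = 0.4 and p = 0.3, same exact test). VeA::FLAG and LaeA::FLAG differed by 0.0746 points (exact two-sided permutation test, p = 0.7, adjusted p = 0.7 over the 3 comparisons). Without WT replicate 1 VeA::FLAG differed from WT by -0.572 points and LaeA::FLAG by -0.647 points, so that this library set the size of both differences.

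The peaks of WT replicate 1 at the ends were spread over 13 of the 16 ends. This library held 134 peaks, 26 of them at ends, 15 of those within 20 kb and 9 in the class Intergenic. Peaks within 20 kb of an end were 11.2% of its peaks, against 0.541% to 1.5% in the other libraries. The class Intergenic took 34.6% of its end peaks and 11.1% of its other peaks. For the 26 end peaks, the strength and the overlap with other libraries were as follows. Their signal was 85.3 to 247 tags per 10 M, with a median of 149 against 192 for its other peaks, and 24 of the 26 had a fold of at least 4 over IgG. None of the 26 lay within 100 bp of a peak of another WT library, and 8 lay near a peak of any other library, against 47 of its 108 other peaks. One of them, nearest to AN0010, coincided with peaks of all 6 libraries of the tagged strains.

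A smaller set is that of end regions with a call in every library of either tagged strain and without one in WT. There were 25 for VeA::FLAG (2.42%), against 3.53% of the other regions and 3.48% of all regions, and 3 for LaeA::FLAG (0.290%), against 0.499% of the others and 0.489% of all. Counting intervals of both ratios include 1. The 25 VeA::FLAG regions had 24 nearest genes and lay at 12 of 16 ends, with 7 of them at the left end of chromosome III. Their VeA::FLAG peak scores were 172 to 985.5 with a median of 384.5, and 16 were in the class promoter-TSS, 6 near termination sites and 3 Intergenic.

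By the worse of its ranks in the combined lists (VeA::FLAG rank 14, LaeA::FLAG rank 63), the best placed end region lay on chromosome VIII from 4896655 to 4897273, 36.9 kb from the right end, in the class promoter-TSS with AN0010 as the nearest gene. The VeA::FLAG replicates gave it an anti-FLAG signal of 1811, 1770 and 1487 tags per 10 M, the LaeA::FLAG replicates gave 712, 1236 and 1116 and WT replicate 1 gave 246, with no peak called in WT replicates 2 and 3. The lowest tagged library was thus above the WT signal. Over the whole merged region, which was wider than some peaks, the IgG signal was 251 (VeA::FLAG), 225 (LaeA::FLAG) and 401 (WT). Over the called peaks it was lower. It was 160 for VeA::FLAG and 136 for LaeA::FLAG at their combined peaks, and 56.5 for WT at the replicate 1 peak.

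Among the end regions, 2 were called in all 6 libraries of the tagged strains and in no WT library. The share of the other regions that met this rule was not counted, so the number is no trait of the ends. That of AN11581 (chromosome II, 73022 to 73640, promoter-TSS) had a signal of 755, 1347 and 543 in VeA::FLAG and of 587, 448 and 713 in LaeA::FLAG. That of AN5093 (chromosome III, 1290 to 1908, near a termination site) had 942, 718 and 910 in VeA::FLAG and 746, 814 and 417 in LaeA::FLAG. It lay 1.60 kb from the left end of the chromosome, and 3 of the 25 VeA::FLAG regions lay within 10 kb of an end. Another region, that of AN11356 (chromosome VI, 3328254 to 3328740, promoter-TSS), was called in all 3 LaeA::FLAG libraries with 561, 489 and 245 and in VeA::FLAG replicates 2 and 3 with 333 and 635.

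The left end of chromosome III held the longest series of such regions. The region nearest to AN12279 (64521 to 65139, promoter-TSS) had a signal of 878, 761 and 1092 in VeA::FLAG, and of 580 and 634 in LaeA::FLAG replicates 1 and 2. A second region nearest to AN12279 (59921 to 60539), with 597, 380 and 608, was called in VeA::FLAG libraries only. The regions nearest to AN5070 (83679 to 84297), with 603, 1165 and 800, and AN12284 (7899 to 8666), with 374, 386 and 213, were likewise called in VeA::FLAG libraries only. Regions nearest to AN5074 and AN10625 were called in all 3 VeA::FLAG libraries and in 1 LaeA::FLAG library each.

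At the right end of chromosome III both regulators had peaks in regions nearest to AN8590. The region from 3430940 to 3431558 had a signal of 708, 885 and 573 in VeA::FLAG and of 587 and 666 in LaeA::FLAG replicates 2 and 3. The IgG signal over the whole region was 21.5 (VeA::FLAG), 245 (LaeA::FLAG) and 399 (WT). Over the LaeA::FLAG combined peak alone, the LaeA::FLAG IgG signal was 139. A second region beside it (3430334 to 3430673) had 850 and 443 in VeA::FLAG replicates 2 and 3 and no peak of a single LaeA::FLAG library, although the LaeA::FLAG combined list had one there. Of the 10 end regions with the best ranks in both combined lists, 5 lay at the ends of chromosome III and 2 at the right end of VIII, nearest to AN0010 and AN0018. The others were nearest to AN11581, AN9033 and AN6472. Both neighbouring regions of AN8590 are among the 5. Chromosome III held 150 of the 1033 end regions and the right end of VIII held 52, and the placement of the 10 was not tested.

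Some strong end peaks were called in no single library other than those of VeA::FLAG. At AN3499 the region (chromosome II, 3976523 to 3976888, promoter-TSS) had a signal of 796, 993 and 670 in the VeA::FLAG replicates and no peak in the other libraries. The Intergenic region nearest to AN3482 (chromosome II, 4035262 to 4035880) had 1015, 753 and 388, and the region nearest to AN0018 (chromosome VIII, 4846074 to 4846692) had 927, 893 and 663, with a LaeA::FLAG combined peak of score 393 but no peak of a single LaeA::FLAG library. The LaeA::FLAG lists were shorter, with 557 to 2470 peaks against 4251 to 5783 in VeA::FLAG.

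The highest LaeA::FLAG scores at the ends belonged to regions that were also high in IgG or in WT. At AN2596 the region (chromosome VII, 4473313 to 4473659, promoter-TSS) had a LaeA::FLAG score of 11355, with 11817 and 16172 in LaeA::FLAG replicates 2 and 3 and 7199 in WT replicate 2. Over the whole region the IgG signal was 17034 (VeA::FLAG), 1461 (LaeA::FLAG) and 2680 (WT), the highest of all end regions in each of the 3 libraries. Over the LaeA::FLAG combined peak alone, the LaeA::FLAG IgG signal was 386. The region nearest to AN6963 (chromosome I, 3731836 to 3732195) had 2330 and 3431 in LaeA::FLAG replicates 1 and 2 and 12682 in WT replicate 3. Its IgG signal over the whole region was 1570 (VeA::FLAG), 536 (LaeA::FLAG) and 1852 (WT). No VeA::FLAG library had a peak in either region.

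At 2 further regions of this kind, all 3 LaeA::FLAG libraries had a peak. The first 180 bp of chromosome VII (Intergenic, nearest to AN9484) had a signal of 844, 1911 and 827 in LaeA::FLAG, against 1893 and 7725 in WT replicates 2 and 3. That of AN10328 (chromosome VI, 3400530 to 3400828) had 628, 1478 and 689 in LaeA::FLAG, against 1919 and 16216 in WT replicates 2 and 3. The highest WT signal was above the highest LaeA::FLAG signal in both. The IgG signal was 630 and 1766 in VeA::FLAG, 461 and 431 in WT, and 104 and 102 in LaeA::FLAG. In LaeA::FLAG, whose own IgG library was the control, the median over all end regions was 86.7. So 4 of the 5 end regions with the highest LaeA::FLAG scores had a WT peak from replicate 2 or 3, and the other was that of AN0010.

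The 2 genes with a symbol had weak and single calls. The 4 regions nearest to xanB (AN2606), on chromosome VII, held a peak of LaeA::FLAG replicate 1 (443), of VeA::FLAG replicate 1 (211) and of LaeA::FLAG replicate 2 (391.5), each in a different region, and the region of abfI (AN2632) held 1 of VeA::FLAG replicate 2 (153). None of these 5 regions held a combined peak.

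Secondary metabolism was approached through a list of 139 locus identifiers, written from general knowledge as members of secondary metabolite clusters; their membership is not annotated in the sources used here. Of these, 112 were the nearest gene of a region and 27 of an end region (24.1%), against 4.47% of all nearest genes. The list was not tested against other genes. Their 60 end regions held a VeA::FLAG combined peak in 12 cases (20%, 95% Wilson interval 11.8% to 31.8%) and a LaeA::FLAG combined peak in 7 (11.7%, 95% Wilson interval 5.77% to 22.2%). Over all regions the shares were 25.1% and 15.2%. Their 236 other regions held a VeA::FLAG peak in 47 cases (19.9%, 95% Wilson interval 15.3% to 25.5%), against 25.4% of all regions outside the ends, and a LaeA::FLAG peak in 24 (10.2%, 95% Wilson interval 6.93% to 14.7%), against 15.4%. The end regions of other loci held a VeA::FLAG peak in 17.9% and a LaeA::FLAG peak in 10.4%. At the ends the shares of the other loci lay within the counting intervals of the listed loci, as did the shares over all regions.

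These end regions belonged to 5 runs of identifiers. Each run had few regions, and over all regions 25.1% held a VeA::FLAG and 15.2% a LaeA::FLAG combined peak. The run AN7872 to AN7879 at the left end of chromosome II had 15 regions, 4 with a VeA::FLAG and 2 with a LaeA::FLAG combined peak. The run AN3490 to AN3496 at its right end had 16 regions, 5 with VeA::FLAG and 2 with LaeA::FLAG. The run AN9246 to AN9259 at the left end of chromosome VIII had 17 regions, 2 with each. AN2621 to AN2623 at the right end of chromosome VI had 6 regions, 1 with each, and AN7825 at the right end of IV had 6 with none. One of these regions was called in all 3 VeA::FLAG libraries, that of AN7877 (chromosome II, 94547 to 95084, promoter-TSS), with a signal of 202, 515 and 271 in VeA::FLAG, 520 in LaeA::FLAG replicate 2 and no WT peak.

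The IgG libraries show how the control behaved at the ends, and each strain's peaks were called against its own. The median IgG signal of VeA::FLAG was 50.1 tags per 10 M at the ends and 40.6 elsewhere (ratio 1.24). That of LaeA::FLAG was 86.7 at the ends and 92.8 elsewhere (ratio 0.934), and that of WT was 75.3 at the ends and 77.2 elsewhere (ratio 0.976). In tags, the VeA::FLAG medians were 10.5 at the ends and 8.50 elsewhere, so that the difference was about 2 tags. There was 1 IgG library per strain, so these differences have no replicate check. By chromosome, the VeA::FLAG median was higher at the ends on 7 of 8, the exception being IV, but only 9 of the 16 single ends were above the rest of their chromosome. The LaeA::FLAG median was lower on 8 of 8 chromosomes. The WT median was lower on 5, equal on 2 and higher on III.

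**Figure D4:**
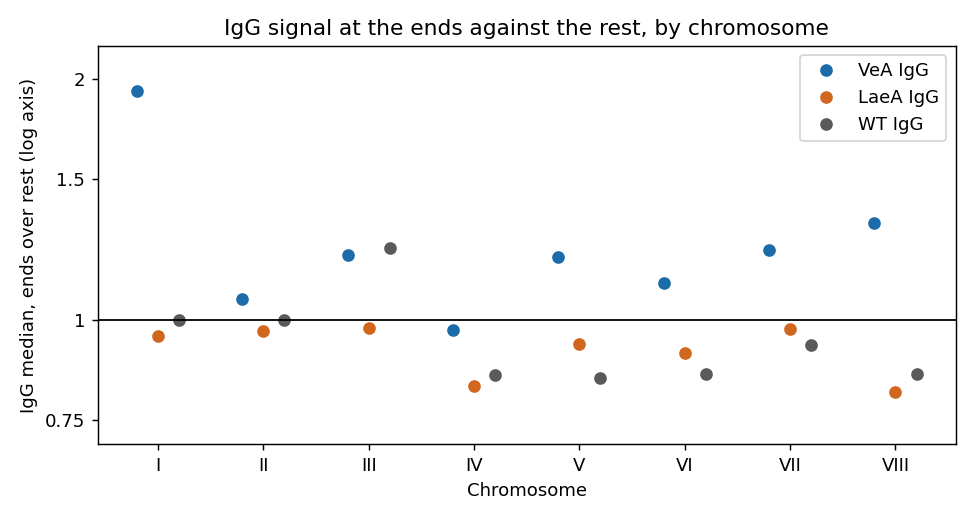
Median IgG signal of the end regions over that of the other regions of the same chromosome (y axis, log scale) for chromosomes I to VIII (x axis), in the VeA::FLAG, LaeA::FLAG and WT IgG libraries. The VeA::FLAG ratio is above 1 except on IV and reaches 1.93 on I, and the LaeA::FLAG ratio is below 1 throughout (0.813 to 0.977).

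By the mean instead of the median, the VeA::FLAG IgG signal was lower at the ends (104 against 152), as was that of LaeA::FLAG (101 against 119) and of WT (101 against 125). Few very high regions weigh on the means: 4 end regions and 50 others exceeded 1000 in VeA::FLAG, with a maximum of 17034 at the ends and of 805808 elsewhere. Without the regions at 0 the VeA::FLAG ratio of medians was 1.06, against 1.24 with them.

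Since the VeA::FLAG IgG signal and the VeA::FLAG peak share both differed between ends and rest, the share was also compared at like IgG signal, a comparison chosen after the values were seen. It was lower at the ends at each of 5 levels. Where the VeA::FLAG IgG signal was 0, 16.4% of the end regions held a VeA::FLAG peak, against 21.4% of the others. At signals of 150 and above the shares were 7.91% and 19.5%. Weighted over the levels the ratio was 0.708 for VeA::FLAG and, with the LaeA::FLAG IgG signal, 0.732 for LaeA::FLAG. The levels rest on 1 IgG library per strain. With VeA::FLAG medians of 10.5 tags at the ends and 8.50 elsewhere, they match the control only roughly. Whether the control plays a part in the lower share was not tested.

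A signal of exactly 0 was less common at the ends in the VeA::FLAG IgG library (24.8% of end regions, 95% Wilson interval 22.2% to 27.5%, against 29.2% elsewhere and 29% of all). In WT the shares were 6.58% (95% Wilson interval 5.23% to 8.26%), against 7.35% elsewhere and 7.32% of all, which is within counting error. In the LaeA::FLAG IgG library, the deepest of all, 23 end regions (2.23%, 95% Wilson interval 1.49% to 3.32%) were at 0, against 6 other regions (0.0288%) and 0.133% of all. Of the 29 regions at 0 in this library, 22 lay in a single stretch at the right end of chromosome IV.

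This stretch ran from 2808284 to 2860021 (51.7 kb, region centres 25.5 to 77.0 kb from the end), with bounds set after its values were seen. It held 26 regions with 12 nearest genes, from AN7832 to AN11027. The LaeA::FLAG IgG signal was 0 in 22 of them and at most 24.98 in the other 4. The regions of the stretch summed to 54.0 tags in the LaeA::FLAG IgG library, against 553 tags in the WT IgG library and 399 tags in that of VeA::FLAG, although both of these were shallower. The median was 0 for LaeA::FLAG, against 40.6 for VeA::FLAG and 63.1 for WT. In the other 24 regions of the same end the LaeA::FLAG median was 126.

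**Figure D5:**
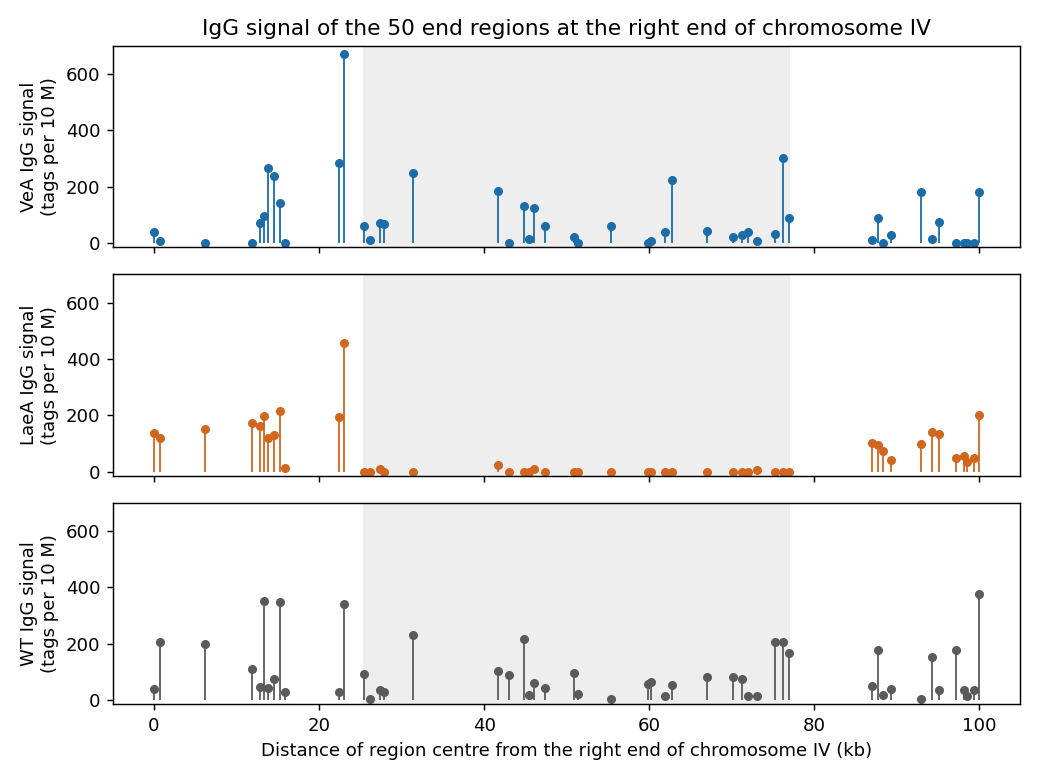
IgG signal in tags per 10 M (y axis) of the 50 end regions at the right end of chromosome IV, by distance of the region centre from the end in kb (x axis), in the VeA::FLAG, LaeA::FLAG and WT IgG libraries from top to bottom. The grey band marks the stretch of 26 regions, in which the LaeA::FLAG signal is 0 in 22 regions and at most 24.98 in the other 4, while the VeA::FLAG and WT medians are 40.6 and 63.1.

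The LaeA::FLAG anti-FLAG libraries also held few peaks there. No LaeA::FLAG combined peak lay in the stretch, against 4.17% of the other 24 regions of the same end and 15.2% of all regions. Peaks of LaeA::FLAG replicates 1, 2 and 3 lay in 1, 0 and 0 of its regions. Over all regions these replicates had 11.2%, 10.1% and 2.54%, a low base for 26 regions. VeA::FLAG combined peaks lay in 8 of the 26 regions (30.8%), against 25.1% of all regions. Peaks of the VeA::FLAG replicates lay in 7, 10 and 8, against 19.3%, 25.5% and 26% of all regions. WT replicates 1, 2 and 3 had peaks in 1, 2 and 1, against 0.608%, 8.33% and 0.915% of all regions. Regions nearest to AN7832 (228, 341 and 268) and AN7842 (205, 301 and 124) were called in all 3 VeA::FLAG libraries. The single LaeA::FLAG peak, of replicate 1, had a signal of 141 nearest to AN11575, in the region where the LaeA::FLAG IgG signal was highest. Whether the LaeA::FLAG strain carries the stretch was not tested. Without the stretch, 10.7% of the end regions held a LaeA::FLAG combined peak (ratio 0.697) and 17.7% a VeA::FLAG one (ratio 0.695).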

How the data were processed

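ChIP-seq libraries of vegetatively grown A. nidulans fell into groups of strain and antibody, per the labels, with 9 anti-FLAG and 3 IgG libraries. According to the study's methods, bowtie2 mapped the reads and HOMER (version 4.11) called the peaks, at more than 2-fold and a p-value under 0.001. The deposited signal is the number of tags over a peak or merged region per 10 M tags of the library, not adjusted for width. For named regions, anti-FLAG values are over the called peak and IgG values over the whole merged region, unless stated otherwise. The peak score is HOMER's, as the authors deposited it, and a distance in bp to the nearest exon start came with it. How the regions were merged is not given in the sources used here.

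A region held a peak when the peak centre lay inside it. Chromosome lengths were taken as the last merged base. Shares have 95% Wilson intervals, and ratios of shares have 95% intervals on the log scale. Regions are not replicates, so tests were run over libraries only: exact two-sided permutation of strain means with Benjamini-Hochberg adjustment over 3 comparisons, and exact two-sided sign flips of the difference between ends and rest. The procedures were tested on simulated data. Python 3.11.15, numpy 2.4.6, pandas 2.3.3 and scipy 1.17.1 were used.

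Named regions were the 5 with the highest score per tagged strain, the 10 with the best worse rank in both lists, those with a call in every library of either tagged strain and without one in WT, the 3 with the highest IgG signal per strain and the listed loci; where these gave over 30 genes, those with a symbol and then those with the highest scores came first. The members and lists were chosen with earlier results of these data known. Gene symbols came from a table of another assembly, used for names only, and no sequence was used here.

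Alternatives were windows of 50 and 200 kb, any overlap, a fold of at least 4 over IgG, equal numbers of top-scoring peaks, support in at least 2 replicates, removal of peaks near WT peaks, weighting by annotation class, signal per kb, the mean, removal of regions at 0 or of the top 1%, leaving out each library or chromosome, and the replicate number as a block.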

Additional observations from a re-analysis of the deposited data

Results flagged for a closer look

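The ratio of the median IgG signal at the ends to that of the rest was 1.24 in the VeA::FLAG library, against 0.934 in LaeA::FLAG and 0.976 in WT, so the VeA::FLAG library moved in the opposite direction to the other 2. The difference between the VeA::FLAG ratio of medians and the others was not tested, since each strain had 1 IgG library.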

How the results depend on the processing

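The lower share of end regions with a combined peak kept its direction under every alternative tried, with ratios of 0.546 to 0.874 over both strains. It moved out of its counting interval in 3 cases: 0.811 with a 200 kb window for VeA::FLAG, 0.546 with a 50 kb window for LaeA::FLAG, and 0.874 for LaeA::FLAG when only peaks found in at least 2 of 3 replicates were counted. The ratio of 0.874 rested on 14 LaeA::FLAG end peaks, against 323 elsewhere, and no interval was computed for it. For LaeA::FLAG peaks found in at least 2 of 3 replicates, a lower share at the ends was thus not established. The same restriction gave 0.668 for VeA::FLAG. Leaving out 1 chromosome gave 0.663 to 0.744 in VeA::FLAG and 0.635 to 0.737 in LaeA::FLAG. The difference between ends and rest per library passed 0.05 with a 200 kb window (-1.51 points), within annotation classes (-1.82), without chromosome V (-1.79), VII (-1.87) or VIII (-1.79), and as peaks per Mb, chosen after the data were seen (-20.8), but reversed as a log2 ratio, also chosen afterwards (0.0262). The difference per library did not pass with a 50 kb window (-1.48 points), any overlap or a fold of at least 4 over IgG. Nor did it pass without chromosome I, II, III, IV or VI. Leaving out 1 library gave -2.19 to -1.39 points (exact two-sided sign-flip permutation tests, p = 0.00781 to 0.117). Of these sets, only the one without WT replicate 1 passed. For the share of a library's peaks, p was 0.1 to 0.7 for VeA::FLAG minus WT and 0.1 to 0.6 for LaeA::FLAG minus WT over the alternatives (exact two-sided permutation tests). Leaving out 1 library gave -8.06 to -0.572 points for VeA::FLAG minus WT, -8.14 to -0.647 for LaeA::FLAG minus WT and -0.141 to 0.313 for VeA::FLAG minus LaeA::FLAG. The last difference also reversed without chromosome III (-0.198), IV (-0.120) or V (-0.0307). By the mean, the IgG ratio reversed for VeA::FLAG (0.685) and moved to 0.847 for LaeA::FLAG and 0.807 for WT. IgG ratios were judged against their SD over chromosomes, which are not replicates. Same-numbered libraries did not deviate together (correlations of -0.0559 to 0.0301). With the replicate number as a block the differences were -5.55 points (p = 0.25, exact sign-flip permutation test, the smallest possible) for VeA::FLAG minus WT, -5.63 (p = 0.25) for LaeA::FLAG minus WT and 0.0746 (p = 0.75) for VeA::FLAG minus LaeA::FLAG, so no call changed. IgG medians of about 10 tags per region limit the VeA::FLAG control, and 3 libraries per strain limit every test.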
